A study of Mus musculus with 2 samples.

Results

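The 10 interferon alpha genes described here are Ifna15, Ifna14, Ifna9, Ifna2, Ifnab, Ifna7, Ifna6, Ifna5, Ifna4 and Ifna1 of mouse chromosome 4. They are 10 of the 22079 genes named on the array. They were chosen by gene symbol, with array values of these same samples known, and each was represented by 1 of the 25305 probe sets that carried 1 gene symbol, out of 35556 on the array. Gene expression was measured in bone-marrow-derived macrophages (BMDM) of the C57BL/6J strain, grown from marrow for 7 days in medium with L929 cell supernatant. Oasl1-/- cells, which lack the oligoadenylate synthetase-like gene Oasl1, and wild-type (WT) cells were both given the double-stranded RNA mimic poly(I:C) at 5 µg/ml for 9 h. For each genotype a mixture of RNA from 3 samples was hybridised to 1 Affymetrix Mouse Gene ST array. The 2 arrays thus held no untreated cells and no replicate of either genotype. The labels give neither the age of the mice nor the structure of the Oasl1 allele.

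Interferon alphas are secreted antiviral cytokines that all signal through one receptor, made of the products of Ifnar1 and Ifnar2. Their genes lack introns, arose by duplication and lie beside each other with the interferon beta gene, Ifnb1. Cells that sense double-stranded RNA activate the transcription factors IRF3 and IRF7, which bind paired GAAA elements before the interferon genes. In mouse cells Ifnb1 and Ifna4 are known as early genes that IRF3 can switch on, whereas most other Ifna genes depend on IRF7, and OASL1 is known to hold back translation of Irf7 mRNA.

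Values are log2 signals as deposited, and differences are Oasl1-/- minus WT. A probe set counted as above the floor when it exceeded the 95th percentile of the negative control probe sets of its array, 7.68 on the Oasl1-/- array and 7.75 on the WT array. Below the floor a value is only an upper limit on the signal, so a gene above it on 1 array is given a lower bound of its fold, measured from the higher of the floor and its own value on the dim array. With 1 array per genotype there was no test and precision is limited by the number of arrays, and values of different probe sets do not rank the amounts of their transcripts. The macrophage markers fixed for this comparison were above the floor on both arrays in 8 of 8 cases, with differences between -0.03 and 0.07, among them Csf1r (12.21 in Oasl1-/-, 12.16 in WT), the receptor for macrophage growth factor.

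All 10 members had higher values on the Oasl1-/- array, by 1.26 to 4.71 with a median of 3.26, and on the WT array all 10 were below the floor. These values chose the members, so they describe the genes and test nothing. On the Oasl1-/- array 8 of the 10 were above the floor, as were 28.9% of all probe sets with 1 gene symbol, and the pattern of being above the floor on the Oasl1-/- array alone was shared by 0.775% of them. With the floor at the 99th percentile of the negative controls, 2 of the 10 were above it on the Oasl1-/- array. Over all 25305 the median difference was 0.01, and 0.0593% were higher in Oasl1-/- by 1 or more on the log2 scale. From mixed RNA of whole cultures, fewer cells making an interferon and less of its RNA per cell cannot be told apart.

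**Figure D1:**
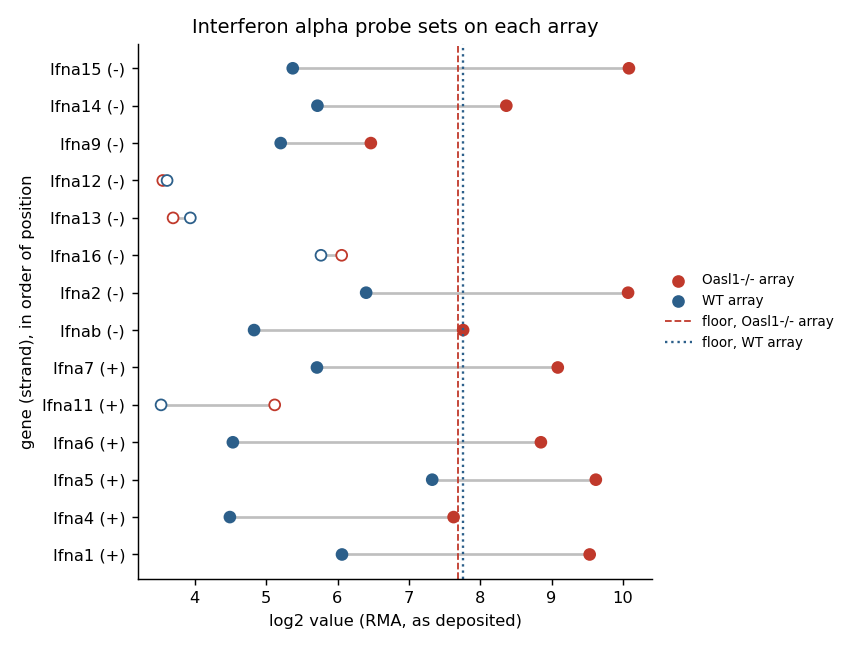
Log2 values of the interferon alpha probe sets on the Oasl1-/- array (red) and the WT array (blue), in order of position with the strand in brackets; filled points are the 10 members, open points the other 4 interferon alpha genes, and the vertical lines mark each array's floor. Every WT value lies left of the floor, 8 members lie right of it on the Oasl1-/- array, and Ifna12, Ifna13 and Ifna16 have nearly the same value on both arrays.

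The members lie over 297 kb in 2 runs of opposite strand, 5 transcribed from the minus strand and, above them, 5 from the plus strand. Positions are those of the deposited table, in the NCBIM37 build. The first in order is Ifna15 (NM_206870, chromosome 4, positions 88199349 to 88204149, minus strand), which the table lists under the model name OTTMUSG00000007655. Its 38 probes gave 10.09 on the Oasl1-/- array and 5.37 on the WT array, a difference of 4.71 and a fold of at least 5.04. It covers a span of 4801 bases, against 570 to 953 for the other members.

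Ifna14 (NM_206975, positions 88217067 to 88217752, minus strand) had 15 probes and values of 8.37 in Oasl1-/- and 5.72 in WT, at least 1.53-fold higher. Ifna9 (NM_010507, positions 88237710 to 88238289, minus strand) had 21 probes and values of 6.47 in Oasl1-/- and 5.20 in WT. Ifna9 was thus below the floor on both arrays, and its measured difference of 1.26 gives no fold.

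Ifna2 (NM_010503, positions 88329111 to 88329683, minus strand), separated from Ifna9 by Ifna12, Ifna13 and Ifna16, had only 12 probes, with values of 10.07 in Oasl1-/- and 6.40 in WT. It was at least 5.00-fold higher, close to the bound of Ifna15. Ifnab (NM_008336, positions 88336503 to 88337172, minus strand) had 13 probes and values of 7.76 in Oasl1-/- and 4.83 in WT. Ifnab stood 0.08 above the Oasl1-/- floor and its bound was 1.01-fold, although its measured difference was 2.93. Within the minus-strand run the bounds of the genes above the floor therefore ran from 1.01-fold to 5.04-fold.

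The plus-strand run starts with Ifna7 (NM_008334, positions 88462132 to 88462704), which had 28 probes and values of 9.09 in Oasl1-/- and 5.71 in WT, at least 2.52-fold higher. Ifna6 (NM_206871, positions 88473252 to 88474204) had values of 8.85 in Oasl1-/- and 4.53 in WT, a difference of 4.32 and at least 2.14-fold. Only 5 of its 19 probes are listed as direct matches to the Ifna6 transcript, a coverage of 26%. For 8 of the 10 members every probe is listed as direct, and Ifna14 is the other exception with 12 of 15. Ifna6 thus has the smallest share of probes listed as direct. Which transcripts the direct or the other probes take up was not tested.

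Ifna5 (NM_010505, positions 88481429 to 88481998) had 15 probes and values of 9.62 in Oasl1-/- and 7.33 in WT, the highest WT value among the members, 0.43 below the floor. Its measured difference was 2.29 and its bound 3.65-fold. Ifna4 (NM_010504, positions 88487720 to 88488363), the early gene of the family, had 25 probes and values of 7.63 in Oasl1-/- and 4.49 in WT. Ifna4 was 0.06 below the Oasl1-/- floor, so no fold is given despite a difference of 3.14, and Ifnab, 0.08 above its floor, marks the other side of the same limit. Ifna1 (NM_010502, positions 88495991 to 88496560) had 48 probes and values of 9.54 in Oasl1-/- and 6.06 in WT, at least 3.44-fold higher.

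The median difference was 2.93 for the 5 members on the minus strand and 3.38 for the 5 on the plus strand, with overlapping ranges of 1.26 to 4.71 and 2.29 to 4.32. Of the 8 members above the floor, 6 reached a bound of at least 2-fold, Ifna15, Ifna2, Ifna5, Ifna1, Ifna7 and Ifna6. Of the 7527 probe sets above the floor on at least 1 array 0.0797% did, which are these same 6. The members are among the 7527 only through the Oasl1-/- array, where they are high. With the floor at the 99th percentile of the negative controls, 0 members reached a bound of at least 2-fold. Since every WT value was below the floor, the bounds follow the Oasl1-/- values alone. Members held between 12 and 48 probes. Of those with 15 or fewer, Ifna2 (12 probes) had a bound of 5.00-fold, Ifna5 (15) one of 3.65-fold, Ifna14 (15) one of 1.53-fold and Ifnab (13) one of 1.01-fold. The paralogs are alike in sequence, so a probe set may also take up transcripts of its neighbours, and single values are uncertain for that reason.

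**Figure D2:**
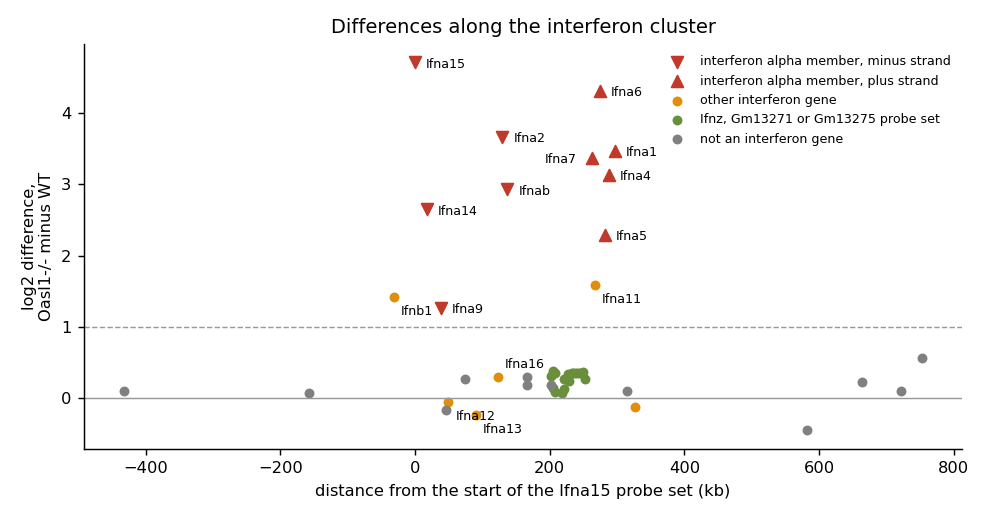
Log2 difference, Oasl1-/- minus WT (y axis), against distance from the start of the Ifna15 probe set in kb (x axis) for the members (triangles pointing down for the minus strand and up for the plus strand) and for every other probe set with 1 gene symbol within 500 kb of them. The dashed line marks a difference of 1; members stand between 1.26 and 4.71, while genes between and beside them that are not interferons lie between -0.45 and 0.56.

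Promoter sequences are shown to describe a layout near the annotated starts, which 9 members share with the non-members Ifna11 and Ifna12. RefSeq windows (GRCm38.p6), from 250 bases before to 50 bases after each annotated start, were found for 9 of the 10 members, all but Ifna7. Each holds on the gene's strand the paired motif, GAAA followed by any 2 bases and again GAAA, the element that interferon regulatory factors are known to bind, and the TATA-type element TATTTAA. Capitals mark both in the stretch of 80 bases that ends with TATTTAA. For Ifna6 the annotated start lies 40 bases before TATTTAA, and the 33 bases before that start are shown.
Ifna15 (chr4:88558339-88558418, minus strand): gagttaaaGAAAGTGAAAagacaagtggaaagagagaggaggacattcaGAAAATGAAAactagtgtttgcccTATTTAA
Ifna14 (chr4:88571892-88571971, minus strand): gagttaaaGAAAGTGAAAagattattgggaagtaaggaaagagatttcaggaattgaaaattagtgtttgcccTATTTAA
Ifna9 (chr4:88592479-88592558, minus strand): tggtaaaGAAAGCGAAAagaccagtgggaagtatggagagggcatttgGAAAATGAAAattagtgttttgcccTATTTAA
Ifna2 (chr4:88683871-88683950, minus strand): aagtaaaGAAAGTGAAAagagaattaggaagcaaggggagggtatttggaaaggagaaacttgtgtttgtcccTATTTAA
Ifnab (chr4:88691321-88691400, minus strand): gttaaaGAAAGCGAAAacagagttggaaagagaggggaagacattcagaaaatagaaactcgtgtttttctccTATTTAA
Ifna6 (chr4:88827243-88827275, plus strand): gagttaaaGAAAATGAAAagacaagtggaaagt
Ifna5 (chr4:88835352-88835431, plus strand): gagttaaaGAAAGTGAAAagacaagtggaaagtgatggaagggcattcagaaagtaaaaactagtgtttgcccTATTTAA
Ifna4 (chr4:88841691-88841770, plus strand): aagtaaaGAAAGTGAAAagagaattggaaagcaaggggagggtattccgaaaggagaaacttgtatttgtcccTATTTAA
Ifna1 (chr4:88849914-88849993, plus strand): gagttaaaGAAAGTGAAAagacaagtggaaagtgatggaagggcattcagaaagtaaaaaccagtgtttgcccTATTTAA

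In all 9 a paired motif begins 65 to 67 bases before TATTTAA, although the annotated starts differ. In Ifna15, Ifna14, Ifna2, Ifna5, Ifna4 and Ifna1 it reads GAAAGTGAAA. Counted from 1 at the 5′ end of those letters, Ifna9 and Ifnab carry T6C and Ifna6 carries G5A, both within the free bases of the motif. A second copy closer to TATTTAA stands in Ifna15 and Ifna9. Ifna14, Ifna2 and Ifna4 hold a further copy upstream of the stretch shown. The stretches of 80 bases were 72.3% to 98.8% identical between members, with a median of 80.5% over 36 pairs.

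The paired motif was found on either strand in 3.44% of the 32851 RefSeq windows and TATTTAA in 4.51%. Both on the gene's strand were found in 25 windows, 0.0761%. The 2 at the spacing of 64 to 67 bases, which was read off these genes, were found in 11 windows, all 11 of interferon alpha genes, 9 of them members and the others Ifna11 and Ifna12. The 8-base core AANNGAAA, which overlaps the paired motif, was in 23.9% of windows and TATAAA in 13.6%, both strands counted. A match describes letters and is neither a binding site nor a cause of the signal.

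**Figure D3:**
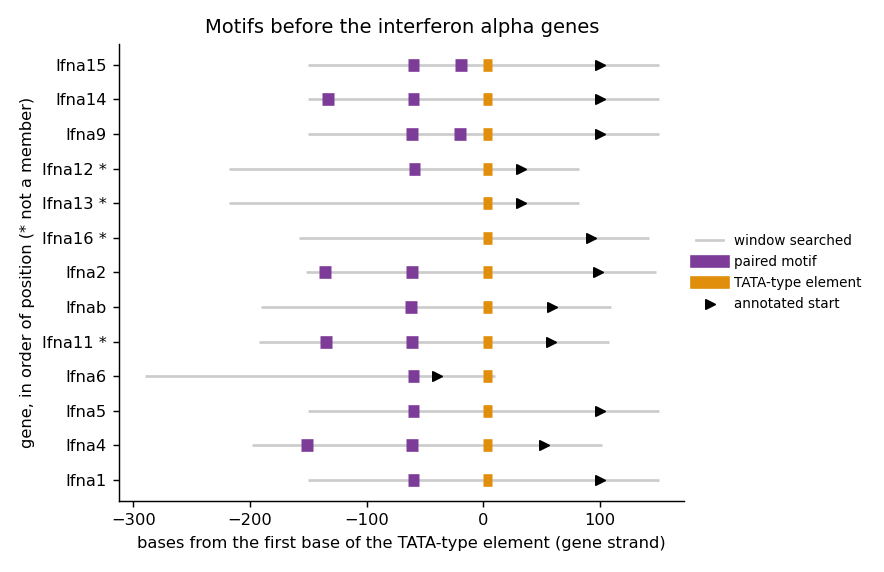
Position of the paired motif (purple) and the TATA-type element (orange) in the RefSeq windows (grey lines) of 9 members and of the 4 other interferon alpha genes (asterisks), in bases from the first base of the TATA-type element; arrowheads are annotated starts. The paired motif stands 64 to 67 bases before the TATA-type element in every member shown and in Ifna11 and Ifna12, and is missing from Ifna13 and Ifna16.

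The other 4 interferon alpha genes of the cluster, which are no members, were below the floor on both arrays, as were the members Ifna9 and Ifna4. Ifna11 (plus strand, between Ifna7 and Ifna6) had values of 5.12 in Oasl1-/- and 3.53 in WT, a measured difference of 1.59, and only 10 of its 19 probes are direct. Ifna12 had 3.55 in Oasl1-/- and 3.61 in WT, and Ifna13 had 3.69 in Oasl1-/- and 3.94 in WT. Ifna16 had 6.06 in Oasl1-/- and 5.77 in WT. The measured differences of Ifna12, Ifna13 and Ifna16 were -0.06, -0.24 and 0.29, and with both values below the floor they are no more than a description. Their probe sets hold 8, 10 and 8 probes, fewer than any member, and the part of probe number in these values was not tested. Their stretches before and including TATTTAA are shown to set beside those of the members.
Ifna11 (chr4:88819788-88819867, plus strand): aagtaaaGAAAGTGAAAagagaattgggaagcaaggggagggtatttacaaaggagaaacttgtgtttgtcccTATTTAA
Ifna12 (chr4:88603402-88603481, minus strand): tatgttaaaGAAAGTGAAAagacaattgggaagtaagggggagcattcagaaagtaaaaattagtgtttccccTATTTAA
Ifna13 (chr4:88644485-88644564, minus strand): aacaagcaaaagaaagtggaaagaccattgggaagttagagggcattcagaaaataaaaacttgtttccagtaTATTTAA
Ifna16 (chr4:88676942-88677021, minus strand): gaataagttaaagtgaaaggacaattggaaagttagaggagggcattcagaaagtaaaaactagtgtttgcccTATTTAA

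Ifna11 and Ifna12 carry the same GAAAGTGAAA at 66 and 64 bases before TATTTAA. Like Ifna14, Ifna2 and Ifna4, Ifna11 holds a further copy upstream of the stretch shown. The closest match 60 to 70 bases before TATTTAA carries A8G in Ifna13 and G1T in Ifna16, each of which breaks the motif, and their windows hold no other copy on either strand. Identity of these stretches to those of the members was 65.9% to 96.3%, with a median of 79.0% over 36 pairs.

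Of the 11 other interferon genes fixed for comparison, 2 were higher in Oasl1-/- by 1 or more, Ifna11 and Ifnb1. Over all probe sets with 1 gene symbol 0.0593% were higher by as much. Ifnb1 had 7.87 in Oasl1-/- and 6.45 in WT, at least 1.08-fold higher, with a measured difference of 1.41. The epsilon, kappa and zeta genes were below the floor on both arrays, Ifne with 4.93 in Oasl1-/- and 5.05 in WT, Ifnk with 3.92 in Oasl1-/- and 3.44 in WT, and Ifnz with 6.08 in Oasl1-/- and 5.84 in WT. The type II gene Ifng had 4.97 in Oasl1-/- and 4.95 in WT, also below it. Of the type III genes, which act at mucosal surfaces, Ifnl2 had 7.89 in Oasl1-/- and 7.36 in WT. It was above the floor on the Oasl1-/- array alone, as 8 members were, and at least 1.10-fold higher. Ifnl3 had 6.66 in Oasl1-/- and 6.40 in WT, both below the floor.

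Of 12 probe sets of genes that are not interferons, from 500 kb below to 500 kb above the members, 3 were above the floor, on both arrays. None of the 12 differed by 1 in either direction, where 0.0593% of all probe sets were higher and 0.0316% lower by as much, and their median difference was 0.14. The 3 above the floor were those of Klhl9, Mrpl48 and Hacd4. Klhl9, an adaptor gene of a ubiquitin ligase that lies between the 2 runs, had 8.52 in Oasl1-/- and 8.33 in WT at its minus-strand probe set. Also inside the cluster, a probe set named Mrpl48 had 9.10 in Oasl1-/- and 9.26 in WT, Pramel32 had 6.16 in Oasl1-/- and 5.89 in WT, and the model ENSMUSG00000073810 had 5.92 in Oasl1-/- and 5.74 in WT. Hacd4, a fatty acid elongation gene below the cluster, had 8.28 in Oasl1-/- and 8.21 in WT, and Cdkn2b, a cell cycle inhibitor gene above it, had 6.52 in Oasl1-/- and 5.96 in WT, both below the floor, the largest positive difference of the 12 at 0.56. The 19 probe sets of Ifnz and of the repeated models Gm13271 and Gm13275 in the space between the runs were all below the floor, with differences of 0.07 to 0.38. Several of them repeat another one's pair of values, so they are not 19 separate readings.

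**Figure D4:**
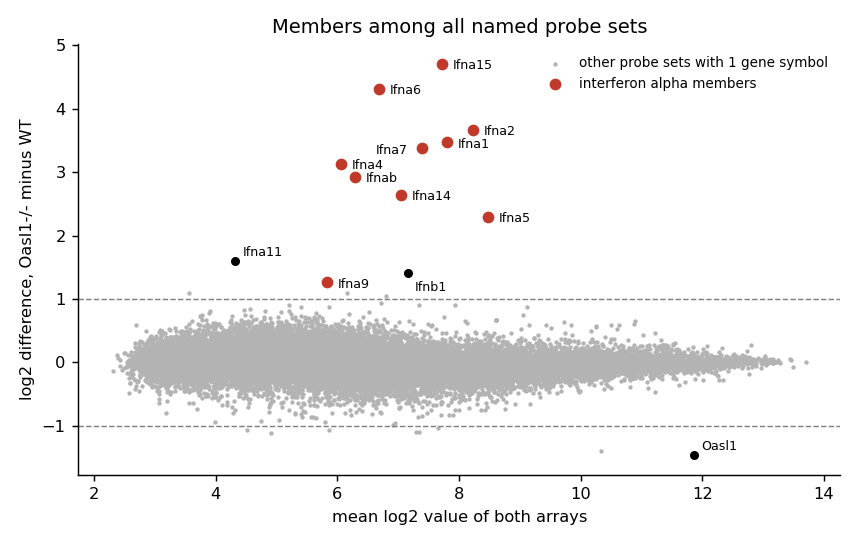
Log2 difference, Oasl1-/- minus WT (y axis), against the mean of both arrays (x axis) for the 25305 probe sets with 1 gene symbol; the members are red, Ifna11, Ifnb1 and Oasl1 black, and dashed lines mark differences of 1 and -1. Of the 12 probe sets with the largest positive difference, 10 are members and the others are Ifna11 and Ifnb1.

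By measured difference, which for the members rests on WT values below the floor, members filled the first 9 places of all probe sets and Ifna9 stood in place 12. Among probe sets above the floor on the Oasl1-/- array the 5 most like the members by their difference over the 2 arrays were Ifnb1, Lcn2, Ngp, Glul and Csprs. Lcn2, which encodes an iron-sequestering lipocalin, had 8.40 in Oasl1-/- and 7.49 in WT, a difference of 0.91. Ngp, a neutrophil granule gene, had 7.79 in Oasl1-/- and 6.90 in WT, and Glul, glutamine synthetase, had 9.56 in Oasl1-/- and 8.69 in WT at a probe set on chromosome 11. Csprs had 9.43 in Oasl1-/- and 8.68 in WT. Among these 5, the differences after Ifnb1 were between 0.74 and 0.91. The floor shaped this list: below it, Ifna11 (1.59), C2 (1.10), EG271505 (1.10) and I830127L07Rik (1.04) had larger differences than Lcn2. The members Ifna9 and Ifna4 were below that floor too.

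Oasl1 itself had 11.13 on the Oasl1-/- array and 12.59 on the WT array, a difference of -1.46. Its signal in Oasl1-/- was still well above the floor. Since the structure of the allele is not given, the value checks the label only in its direction. Of the 14 genes fixed for sensing of double-stranded RNA and induction of interferon, none differed by 1 in either direction, against 0.0593% higher and 0.0316% lower over all probe sets, and the median was -0.02. Irf7, which drives the Ifna genes, had 12.19 in Oasl1-/- and 12.48 in WT, a difference of -0.28. Irf8, a factor of the same family in myeloid cells, had 9.94 in Oasl1-/- and 9.63 in WT. The array measures mRNA, so the amount of IRF7 protein was not measured.

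Downstream of the interferons, 0 of 10 receptor and signalling genes and 0 of 20 interferon-induced genes differed by 1 in either direction. Over all probe sets 0.0593% were higher and 0.0316% lower by as much, so these counts set neither list apart. The median differences of the 2 lists were 0.08 and 0.02. Both receptor chains were well above the floor, Ifnar1 with 10.32 in Oasl1-/- and 10.21 in WT and Ifnar2 with 10.43 in Oasl1-/- and 10.53 in WT. The largest differences among the signalling genes were those of the feedback inhibitors Socs1 (7.67 in Oasl1-/-, 7.35 in WT, both below the floor) and Socs3 (8.91 in Oasl1-/-, 8.62 in WT). All 20 induced genes were above the floor on both arrays, with values from 10.16 to 13.47 in Oasl1-/- and from 10.17 to 13.41 in WT. The highest value of any probe set on either array was 13.71. Whether differences of the brightest induced genes are compressed near that top was not tested. Among them the largest differences were those of Gbp2, a guanylate-binding protein gene (12.94 in Oasl1-/-, 12.66 in WT), and Ifi44 (12.44 in Oasl1-/-, 12.21 in WT).

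Plasmacytoid dendritic cells are known as strong makers of interferon alpha, and their markers were read beside the members. Of 10 such markers 2 were above the floor on each array, Tcf4 (10.06 in Oasl1-/-, 10.04 in WT), a transcription factor gene that other cells also express, and Il3ra (7.84 in Oasl1-/-, 7.97 in WT). The defining lectin gene Siglech had 5.39 in Oasl1-/- and 5.23 in WT and the chemokine receptor gene Ccr9 had 4.86 in Oasl1-/- and 4.84 in WT, all below the floor. Over the list, differences ran from -0.18 to 0.38 with a median of 0.02. None of 6 fibroblast markers was above the floor on either array, with differences from -0.26 to 0.54 and a median of 0.05.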

How the data were processed

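Per the labels' protocols, 1 array was hybridised for each genotype with a mixture of RNA from 3 poly(I:C)-treated samples. The authors deposited log2 values for probe sets. GCOS and RMA, with no version, appear in the submitters' processing notes. Joint normalization of both arrays is not stated in the sources used here. RMA compresses differences of dim probe sets. A second deposited table of log2 values differed from the first by 0, and the authors' log2 ratio equalled Oasl1-/- minus WT.

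Symbols were updated through RefSeq accessions (GRCm38.p6), which matched for 20515 of 25305 probe sets; 10249 had no symbol and 2 had several. Where the table describes a transcript by NCBIM37 position, 92.9% of 2286 probe sets overlapped it. The floor used 5222 intron and 45 antigenomic probe sets. For genes of the lists with several probe sets, the one with the highest mean was used. Named are the members, Oasl1, Irf7, the other interferons and genes inside the cluster. Also named are the 5 non-members above the floor in Oasl1-/- with the largest positive difference. From each pathway list the 2 genes with the largest absolute difference are named. The cell type markers named were not chosen by that rule, and they and further examples were picked with their values known. The members, lists and motifs were chosen with earlier results of these data known. Promoter identity came from global alignments (match 1, mismatch -1). Counting was tested on simulated data. Python 3.11.15, NumPy 2.4.6, pandas 2.3.3, statsmodels 0.14.6, Biopython 1.88 and Matplotlib 3.10.9 were used.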

Additional observations from a re-analysis of the deposited data

How the results depend on the processing

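No paired analysis was possible because there was 1 array per genotype, and for the same reason no replicate could be left out. All 10 members kept a positive difference under every scaling tried other than raising values to the floor. All 10 kept a difference of at least 1 when differences were centred, freed of a loess trend or quantile normalized, with medians of 3.24, 3.25 and 3.28. With log2 of the linear value plus 32, which pulls dim values together, the median was 2.43, 9 members reached 1 (Ifna9 had 0.81), and 1 of the other interferon genes did. When values under the floor were raised to it, the median was 1.22, and Ifna9 and Ifna4, below it on both arrays, kept no positive difference. With a floor at the 99th percentile of the negative controls (9.73 in Oasl1-/-, 9.83 in WT) 2 members were above it on the Oasl1-/- array and 0 had a bound of at least 2-fold. Thresholds of 1.5-fold and 3-fold, floors at the 90th percentile or the median, and the second table left the counts within 1.5 times, and the medians of the pathway lists and of the neighbouring genes moved by less than 0.19, the robust SD of all differences. Signal over background is the limit, since no member was above the floor in WT.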

Other observations

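Besides the 10 members, 5 probe sets were higher in Oasl1-/- by 1 or more. Apart from Ifna11 and Ifnb1 they were C2, a complement gene on chromosome 17 (6.70 in Oasl1-/-, 5.60 in WT), and the models EG271505 (4.11 in Oasl1-/-, 3.01 in WT) and I830127L07Rik (7.32 in Oasl1-/-, 6.27 in WT). C2, EG271505 and I830127L07Rik were below the floor on both arrays. They are named because the count is small, and were chosen after their values were seen.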
